A study of Mus musculus with 14 samples.

Results

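The genes described are those named Vps, Snx or Chmp on a mouse expression array, most of which encode proteins that sort cargo at endosomes. A row of the array belonged to them when its first gene symbol was Vps followed by a number and an optional letter, Snx followed by a number, or started with Chmp and a number. It found 73 rows and 72 gene symbols, of the 22203 gene-level transcript clusters tested, where a transcript cluster is the set of probes that read 1 gene. Snx29 had 2 rows, and the row of higher mean signal was kept, the one step that used a measured value. By known function the 72 symbols divide into 4 retromer subunits, 9 proteins of the HOPS, CORVET and related tethering machinery, 5 subunits of the GARP and EARP tethers, 7 subunits of ESCRT-I and ESCRT-II, 12 genes of ESCRT-III and its Vps4 ATPases, 4 Vps13 lipid transfer proteins and the sorting nexins, 12 with a BAR domain, 3 with a FERM-like domain, 4 with PXA and PXC domains and 11 others. The remaining symbol, Vps72, shares the name but encodes a chromatin protein.

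RNA came from regulatory T cells (Tregs, the Foxp3-expressing CD4 T cells that restrain immune responses), which were sorted from mixed bone marrow chimeras on 14 Clariom S mouse arrays. The cells grew from CD45.2+ marrow that was Foxp3Cre Atg14+/fl (labelled het, the control) or Foxp3Cre Atg14fl/fl (labelled KO), and each was mixed with CD45.1+ wild-type marrow and given to sublethally irradiated Rag1-/- hosts, which lack T and B cells of their own. Both groups carried the Cre, which the Foxp3 promoter drives in Tregs, and chimeras were left for 6 to 8 weeks. Central Tregs (cTregs, low in CD44 and high in CD62L) and effector Tregs (eTregs, high in CD44 and low in CD62L) were sorted apart, giving 4 het cTreg, 3 KO cTreg, 4 het eTreg and 3 KO eTreg arrays. The labels give no age of the animals and do not say whether arrays with the same number come from the same animal, so P values measure the spread between arrays.

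Proteins on their way to the lysosome or back to the cell surface pass through endosomes, where the lipid phosphatidylinositol 3-phosphate recruits the sorting machinery. The lipid kinase Vps34 makes this lipid, and Atg14 is the subunit that directs 1 of its complexes to autophagy. Sorting nexins bind the lipid through a PX domain, ESCRT complexes bud cargo into the lumen of the endosome, retromer returns cargo to the Golgi or the surface, and tethering complexes bring membranes together before they fuse. In T cells this machinery handles antigen receptors and cytokine receptors after they are internalised. The arrays therefore allow the RNA of this machinery to be compared between resting and activated Tregs, and between genotypes.

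Signals are log2 values, so that a difference of 1 is a doubling. Background probes had medians of 6.00 to 6.30, and 69 of the 72 genes had a mean more than 1 above the highest of these, the others being Snx7, Snx24 and Vps50. The correlation between any 2 arrays was 0.962 to 0.994. Foxp3 signal was 12.74 to 13.12 on all arrays, and Cd44 was higher in eTregs by 1.61 in het and 1.80 in KO arrays. The Atg14 probes gave a mean of 9.16 ± 0.16 (SD, n = 3) in eTregs labelled KO and 8.84 ± 0.16 (SD, n = 4) in het eTregs, and 9.29 ± 0.04 against 8.94 ± 0.26 in cTregs. Atg14 signal was therefore not lower in the arrays labelled KO. It was higher by 0.32 in eTregs and 0.35 in cTregs (unadjusted P of 0.0323 and 0.0213, limma), and neither passed adjustment. Whether the probes lie within the deleted part is not given, and the genotype labels are used here as given. All 15 of 15 monocyte and macrophage markers were measured, and their mean signal was 10.66 and 10.61 on KO eTreg 2 and KO eTreg 3, against 8.41 on KO eTreg 1, 8.64 to 9.07 in het eTregs and 7.97 to 8.26 in all cTregs. A list of 10 dendritic cell markers gave 9.72 and 9.94 on the same 2 arrays and 8.94 to 9.14 on the other eTreg arrays. Of these 10, 7 were higher in KO than in het eTregs and 1 was called. Siglech, of this list, read 9.78, 10.79 and 10.65 on KO eTreg 1 to 3, against 8.37 to 8.86 in het eTregs. The defining macrophage markers were not near background, with Csf1r at 11.90 and 11.69 and C1qa at 12.10 and 12.18 on KO eTreg 2 and 3. The main values that rest on these arrays are therefore also given without them, an alternative chosen after the data were seen. It leaves 1 KO eTreg array, KO eTreg 1, itself above the het eTregs in Siglech. KO eTreg 1 also had the lowest mean of 8 effector Treg markers among eTregs, 9.81 against 10.34 to 10.95 on the others. Its mean of 6 central Treg markers was the highest, 12.53 against 12.08 to 12.25. Values without KO eTreg 2 and 3 therefore rest on the eTreg array lowest in effector markers, and the part of this was not tested. KO eTreg 1 is assumed to vary like the other groups. A lost call therefore says little, and the size of the difference is the value to compare. In bulk RNA, a change in the share of a cell type cannot be told apart from a change within cells.

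RefSeq promoter windows (mouse build GRCm38.p6, 250 bases before to 50 after the start of the gene) were at hand for 48 of the 72 genes. Vps54 and Snx13 are shown because their RNA rose in eTregs. Vps37b and Snx9, which also changed there, had no entry. Capitals mark the bases from the start site onward, and the windows lie at chr11:21238782-21239081 (plus strand) and chr12:35046939-35047238 (plus strand).
Vps54: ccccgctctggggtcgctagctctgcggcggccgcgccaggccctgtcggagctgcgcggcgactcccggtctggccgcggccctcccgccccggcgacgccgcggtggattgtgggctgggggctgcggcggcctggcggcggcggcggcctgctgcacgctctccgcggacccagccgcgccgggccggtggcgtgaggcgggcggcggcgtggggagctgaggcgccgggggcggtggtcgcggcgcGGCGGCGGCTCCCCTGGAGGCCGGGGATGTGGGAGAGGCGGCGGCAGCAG
Snx13: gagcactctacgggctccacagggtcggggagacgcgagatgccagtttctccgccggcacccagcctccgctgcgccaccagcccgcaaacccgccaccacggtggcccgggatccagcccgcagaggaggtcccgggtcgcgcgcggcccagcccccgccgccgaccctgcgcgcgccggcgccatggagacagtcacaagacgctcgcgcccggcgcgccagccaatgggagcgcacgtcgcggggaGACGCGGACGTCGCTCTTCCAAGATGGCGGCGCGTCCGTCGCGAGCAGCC
The palindromic letters TCACGTGA are the core of the motif bound by the lysosomal regulators Tfeb and Tfe3, and they contain the shorter E-box CACGTG. Both read the same on either strand. TCACGTGA was present in the windows of 3 of the 48 genes (6.25%), Vps16, Vps26a and Vps33a, and in 304 of all 27025 genes with a window (1.12%). CACGTG was present in 7 of the 48 (14.6%), the same 3 with Snx5, Snx8, Snx18 and Vps50, and in 8.09% of all. Vps16 and Vps33a, which encode 2 core subunits of the HOPS and CORVET tethers, are shown with the letters in capitals, at chr2:130424070-130424369 (plus strand) and chr5:123572966-123573265 (minus strand). Vps33a held them 2 times, starting at -29 and -13 from the start of the gene, and Vps16 once, at -19.
Vps16: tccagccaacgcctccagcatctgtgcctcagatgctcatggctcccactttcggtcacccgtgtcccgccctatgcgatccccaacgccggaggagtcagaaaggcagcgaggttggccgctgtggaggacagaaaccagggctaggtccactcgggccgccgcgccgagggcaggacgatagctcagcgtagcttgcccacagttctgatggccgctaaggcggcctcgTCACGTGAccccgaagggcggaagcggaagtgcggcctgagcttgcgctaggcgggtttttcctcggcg
Vps33a: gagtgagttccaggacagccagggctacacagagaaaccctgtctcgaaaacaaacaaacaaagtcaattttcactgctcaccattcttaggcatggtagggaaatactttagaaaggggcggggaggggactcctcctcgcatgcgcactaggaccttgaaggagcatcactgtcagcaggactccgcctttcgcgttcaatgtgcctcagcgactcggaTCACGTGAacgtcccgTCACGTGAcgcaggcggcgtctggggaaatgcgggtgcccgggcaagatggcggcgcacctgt
Neither window of Vps54 nor of Snx13 held CACGTG. A match of letters is a description and not evidence of binding.

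Between eTregs and cTregs of het chimeras, 4 of the 72 genes changed. Vps54, Snx13 and Snx9 rose in eTregs and Vps37b fell. A gene was called when its log2 change was 0.5 or more in size with an adjusted P below 0.05 (limma, Benjamini-Hochberg over all 22203 transcript clusters), and 5.56% of the genes met this against 3.06% of all transcript clusters. Without the size limit the same 4 genes passed, against 3.58% of all. With the same size limit and an unadjusted P below 0.05, which the study's methods also allow, Vps4a was added (5 genes, against 4.72%), and where only an unadjusted P below 0.05 was asked there were 13 genes (18.1%, against 12.8%). The median change of the 72 genes was -0.01 and that of all transcript clusters was 0.00, and 35 of 72 were higher in eTregs.

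In the arrays labelled KO, 2 genes were called between eTregs and cTregs. Vps54 rose and Vps37b fell again, 2.78% of the genes against 2.35% of all. Snx15 was also lower at an adjusted P below 0.05, with a change under 0.5 (3 genes, against 2.43%). At the unadjusted threshold there were 4 genes, Snx10, Snx9, Vps37b and Vps54 (5.56%, against 5.81%), and at any size 13 (against 13.8%). Leaving out KO cTreg 2, KO eTreg 2 or KO eTreg 3 left none of the 72 called. For Snx9, Snx10, Snx15, Vps37b and Vps54 the KO difference without both macrophage-high arrays is given below.

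Between genotypes none of the 72 genes was called in eTregs (0.117% of all transcript clusters were, by limma) or in cTregs (0.045%). In eTregs 0 genes passed the unadjusted threshold (2.72% of all did), with 3 passing without KO eTreg 1, KO eTreg 3 or het eTreg 1, 2 without het eTreg 2 and 1 without KO eTreg 2, and 5 reached an unadjusted P below 0.05 whatever their change, namely Chmp4c, Snx21, Vps37c, Vps4a and Vps54 (6.94%, against 8.03%). In cTregs Vps54 alone passed the unadjusted threshold (0.576% of all). This count was 0 without KO cTreg 1, 6 without KO cTreg 3 (Vps13d, Vps50, Vps33b, Snx25, Snx19 and Vps54), 3 without het cTreg 4 and 2 without het cTreg 3. For fits that left out an array the share over all transcript clusters was not counted. Those counts therefore cannot be set against the whole array. In cTregs 7 genes reached an unadjusted P below 0.05 whatever their change, namely Snx15, Snx17, Snx25, Vps13d, Vps33b, Vps37a and Vps54 (9.72%, against 4.01%). Of these 7, 6 were lower in KO, and of the 890 transcript clusters at that threshold 450 were. No gene and no transcript cluster (0%) was called for the difference between the genotype effects of the subsets. There 2 genes, Chmp4c and Vps4a, passed the unadjusted threshold (3.05% of all, with 0 of the 72 without KO cTreg 1 and 1 without KO eTreg 2, het cTreg 4 or het eTreg 4) and 5 reached an unadjusted P below 0.05 (6.12% of all), the others being Snx15, Snx17 and Vps37c. The het and the KO comparison of subsets, and the comparisons of genotype, share arrays with each other, so their values are given side by side and were not correlated.

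**Figure D1:**
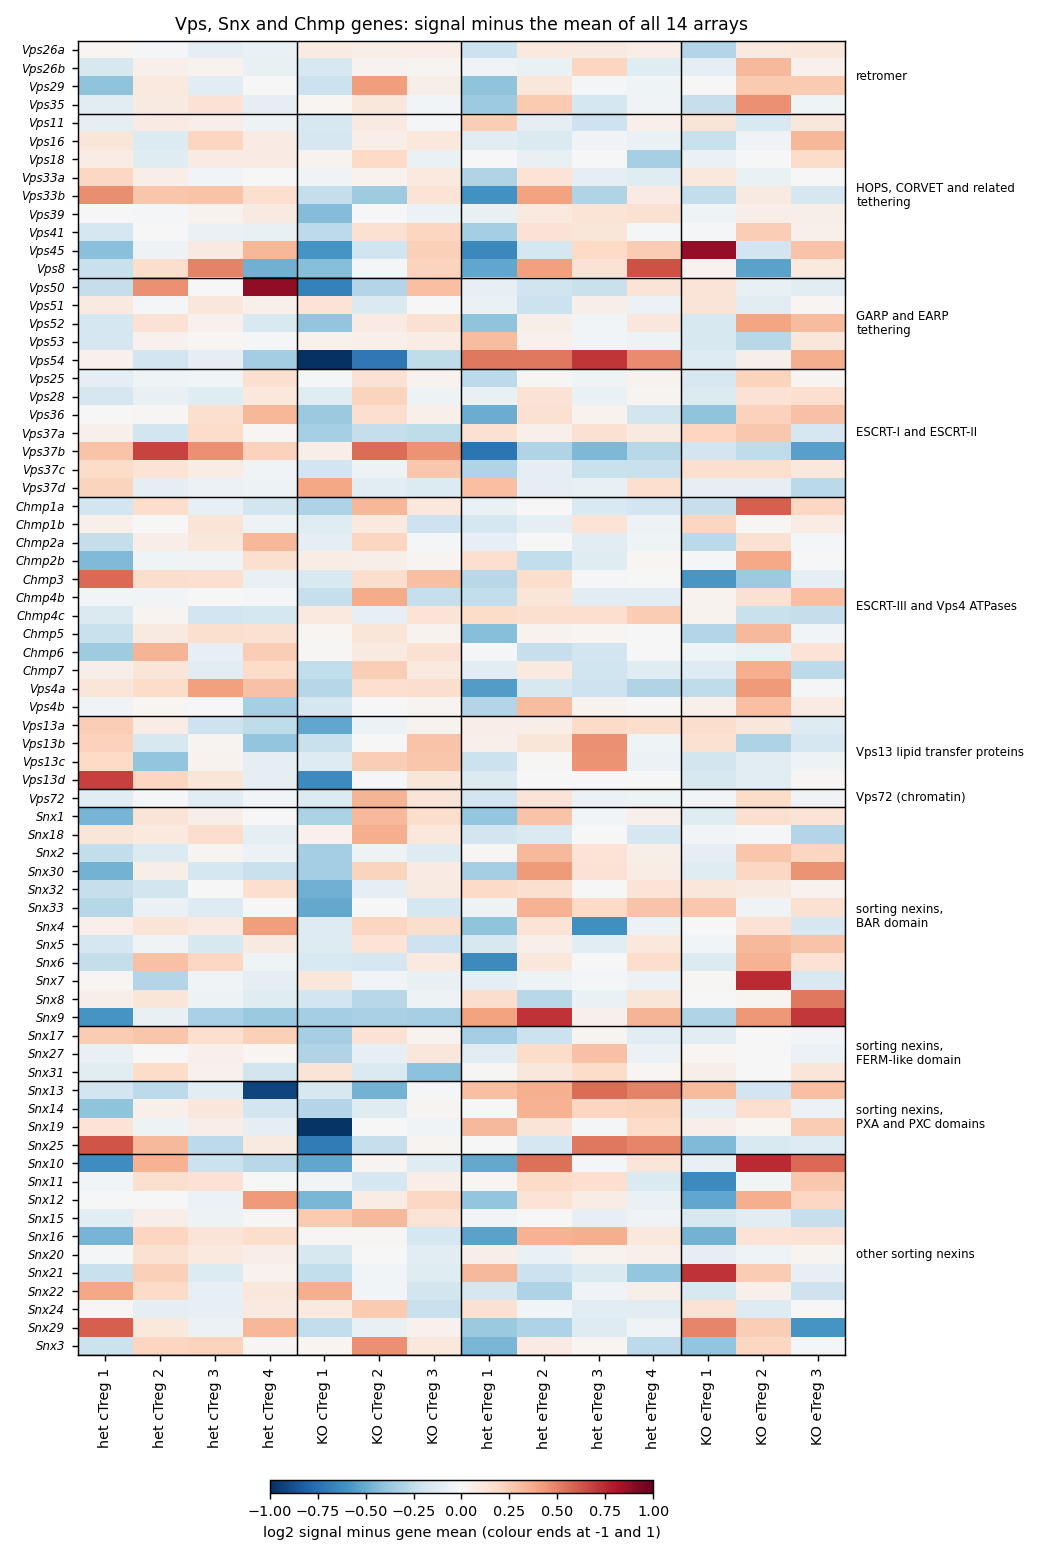
Log2 signal of each of the 72 genes (rows, ordered by role) on each of the 14 arrays (columns, by group), minus the mean of that gene over all arrays. Vps54, Snx9 and Snx13 are above their mean on all het eTreg arrays and Vps37b is below it.

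The tethers of the GARP and EARP complexes, which capture endosome-derived vesicles at the Golgi or at recycling endosomes, held 1 called gene. Vps54, the subunit that sets GARP apart from EARP, read 10.45, 10.22, 10.31 and 10.06 on het cTreg 1 to 4, 9.42, 9.69 and 10.16 on KO cTreg 1 to 3, 10.94, 10.94, 11.12 and 10.88 on het eTreg 1 to 4, and 10.28, 10.47 and 10.77 on KO eTreg 1 to 3. Every eTreg array exceeded every cTreg array of its genotype, and every KO eTreg array lay below every het eTreg array, while in cTregs KO cTreg 3 reached into the het range. The rise in eTregs was 0.71 ± 0.15 (SE) in het (1.64-fold, adjusted P = 0.0108, limma) and 0.75 ± 0.17 in KO (1.68-fold, adjusted P = 0.0284). The het call held without any single array, whereas the KO call was lost without KO cTreg 1 (adjusted P = 0.129), KO cTreg 2 (0.0943), KO eTreg 2 (0.0865) or KO eTreg 3 (0.162). Without both macrophage-high arrays the KO difference was 0.52, with an adjusted P of 0.582.

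Vps54 was also the gene of lowest unadjusted P between genotypes in cTregs. Its KO minus het difference was -0.50 ± 0.16 (SE) in cTregs (95% interval -0.84 to -0.16, unadjusted P = 0.00652) and -0.46 ± 0.16 in eTregs (-0.81 to -0.12, unadjusted P = 0.0109), and neither passed adjustment (adjusted P of 1.00 and 0.386, limma). Without KO cTreg 1 the cTreg difference was -0.34, and without both macrophage-high arrays the eTreg difference was -0.69. The latter compares KO eTreg 1 alone, the eTreg array lowest in effector Treg markers, with the het eTregs. Averaged over both subsets, a contrast added after these values were seen, the difference was -0.48 ± 0.11 with an adjusted P of 0.183. The difference between the genotype effects was 0.04 ± 0.23. Of the other subunits, Vps50 lay near background and Vps51, Vps52 and Vps53 passed no threshold in any comparison.

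Among ESCRT-I and ESCRT-II genes, whose complexes gather ubiquitin-marked cargo, Vps37b fell in eTregs. Vps37b, 1 of 4 interchangeable ESCRT-I subunits, read 11.62, 12.02, 11.80 and 11.57 on het cTreg 1 to 4 and 10.61, 11.03, 10.89 and 11.06 on het eTreg 1 to 4. It read 11.40, 11.90 and 11.79 on KO cTreg 1 to 3 and 11.16, 11.08 and 10.80 on KO eTreg 1 to 3. All eTreg arrays lay below all cTreg arrays in both genotypes, and the genotypes overlapped within each subset. The gene fell by 0.85 on the log2 scale in het (SE 0.14, 1.81-fold, adjusted P = 0.00206, limma) and by 0.68 in KO (SE 0.17, 1.61-fold, adjusted P = 0.0383). The KO call was lost without KO cTreg 2 (adjusted P = 0.141), KO cTreg 3 (0.127), KO eTreg 2 (0.0939), KO eTreg 3 (0.191), het cTreg 3 (0.0558) or het eTreg 3 (0.0557), and without both macrophage-high arrays the difference was -0.54 with an adjusted P of 0.551. Between genotypes Vps37b differed by 0.11 (95% interval -0.21 to 0.44) in eTregs and -0.06 (-0.38 to 0.27) in cTregs.

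The other Vps37 genes did not follow Vps37b. Vps37c read 10.11, 10.05, 9.996 and 9.88 in het cTregs, 9.73, 9.87 and 10.19 in KO cTregs, 9.62, 9.83, 9.70 and 9.69 in het eTregs and 10.09, 10.08 and 10.03 in KO eTregs. Het eTregs were below both het cTregs and KO eTregs with no overlap. The difference was -0.30 ± 0.10 (SE) between subsets in het (adjusted P = 0.169) and 0.35 ± 0.11 between genotypes in eTregs (unadjusted P = 0.00617, adjusted P = 0.316, limma), and the difference between the genotype effects was 0.43 ± 0.16 (adjusted P = 0.789). Without both macrophage-high arrays the genotype difference in eTregs was 0.38.

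Vps37a read 10.26, 10.03, 10.39 and 10.23 in het cTregs, 9.88, 9.97 and 9.95 in KO cTregs, 10.36, 10.26, 10.36 and 10.30 in het eTregs and 10.42, 10.47 and 10.04 in KO eTregs. The KO cTregs lay below all other arrays, and KO eTreg 3 was the lowest of the eTregs. The KO minus het difference in cTregs was -0.29 ± 0.12 (unadjusted P = 0.0240) and the eTreg minus cTreg difference in KO was 0.38 ± 0.13 (adjusted P = 0.148), or 0.49 without both macrophage-high arrays. Vps37d and the remaining genes of both complexes, Vps25, Vps28 and Vps36, passed no threshold in any comparison.

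ESCRT-III genes, which form the filaments that cut membrane necks, had no called member in any comparison with the settings used here. Vps4a, an ATPase that takes these filaments apart, was closest. It read 10.72, 10.78, 11.01 and 10.89 in het cTregs, 10.31, 10.76 and 10.77 in KO cTregs, 10.04, 10.43, 10.39 and 10.30 in het eTregs and 10.34, 11.02 and 10.58 in KO eTregs. Het eTregs were below het cTregs with no overlap, and the KO groups overlapped. The difference between subsets was -0.56 ± 0.15 (SE) in het (1.47-fold, adjusted P = 0.0502, limma) and 0.03 ± 0.17 in KO (adjusted P = 0.961). The difference between these was 0.59 ± 0.23 (unadjusted P = 0.0195, adjusted P = 0.789), so that a subset change particular to het was not shown. Without KO eTreg 2, which had the highest Vps4a signal of its group, the het difference passed the adjusted threshold (adjusted P = 0.0203), as it did without KO cTreg 1 (0.0326) or KO eTreg 1 (0.0232). It also passed with array weights (0.00381), 75th percentiles subtracted (0.0245), a filter on low signal (0.0318), a robust prior (0.0356) or a fit of both het groups alone (0.00982). Between genotypes in eTregs Vps4a differed by 0.36, and by 0.17 without KO eTreg 2. Without both macrophage-high arrays that difference was 0.05, the subset difference in KO was -0.27 and the difference between genotype effects was 0.29.

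Chmp4c, an ESCRT-III subunit known for its part in timing the last step of cell division, had the lowest unadjusted P of the 72 for the difference between genotype effects. Its signal was 8.30, 8.48, 8.26 and 8.27 in het cTregs, 8.55, 8.37 and 8.58 in KO cTregs, 8.63, 8.61, 8.62 and 8.70 in het eTregs and 8.48, 8.23 and 8.21 in KO eTregs. The het eTregs were above all het cTregs and all KO eTregs, and the 2 KO groups overlapped. The eTreg minus cTreg difference was 0.31 ± 0.10 in het and -0.19 ± 0.11 in KO, the KO minus het difference in eTregs was -0.34 ± 0.10 (adjusted P = 0.301), and the difference between genotype effects was -0.51 ± 0.15 (unadjusted P = 0.00315, adjusted P = 0.700, limma). The lowest values were those of the 2 macrophage-high arrays, and without them the KO minus het difference in eTregs was -0.16 and the difference between genotype effects -0.33. Chmp3 was lower in KO eTregs than in KO cTregs at an unadjusted P below 0.05, by -0.45, or -0.69 without both macrophage-high arrays. The other Chmp genes and Vps4b passed no threshold.

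**Figure D2:**
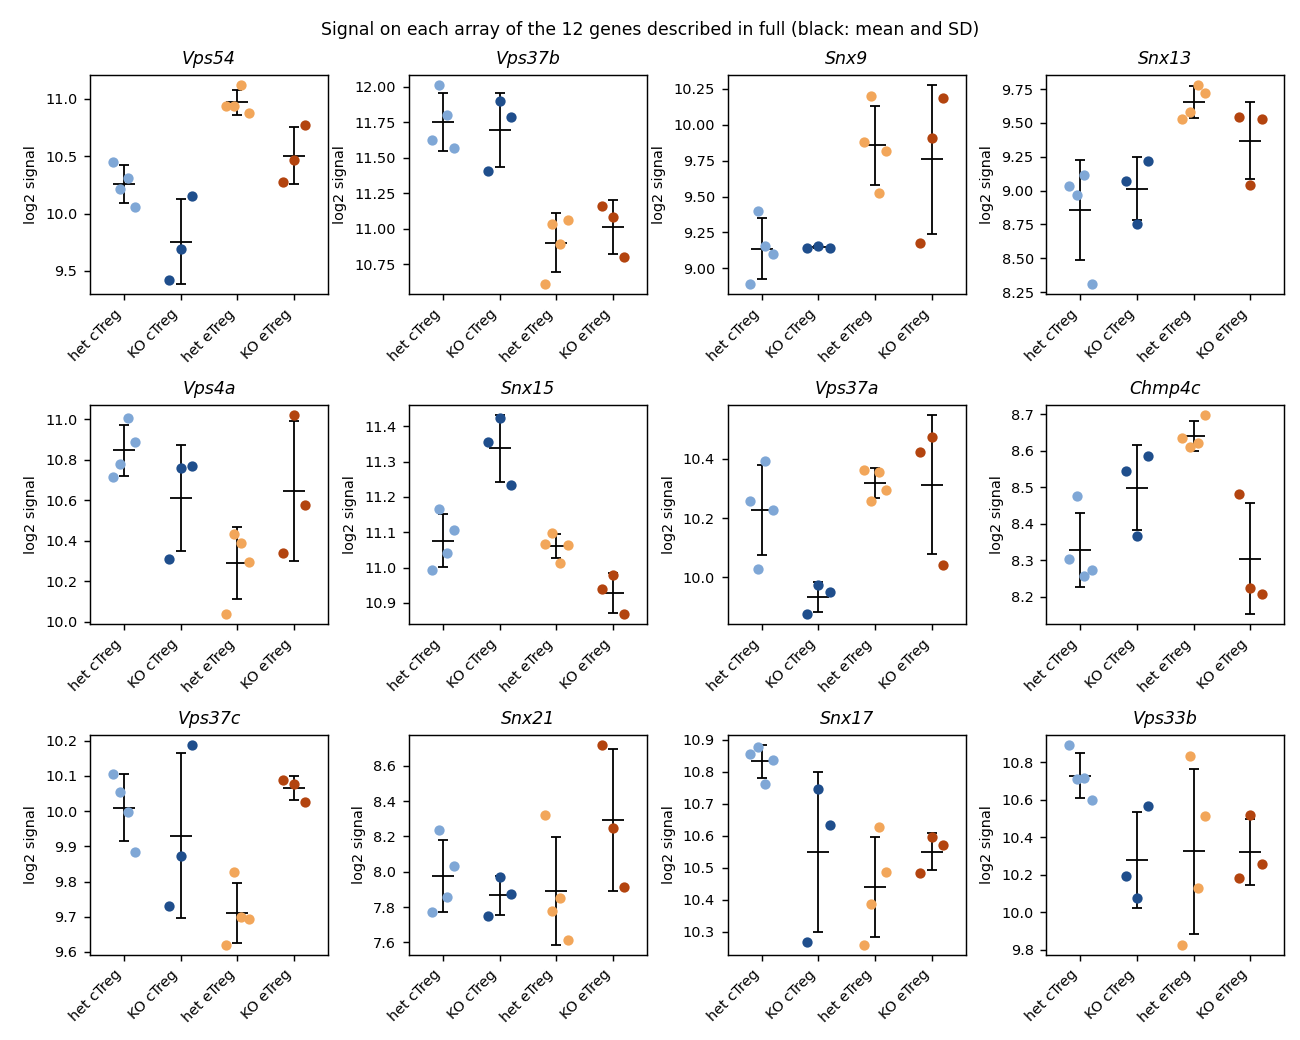
Log2 signal (vertical axes, which do not start at 0) of 12 genes, 1 point per array in the 4 groups, with the mean and SD in black. The eTreg and cTreg points do not overlap in either genotype for Vps54, Vps37b and Snx9, and in the eTreg column of Snx9 the array KO eTreg 1 lies with the cTregs.

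Retromer returns cargo from endosomes, and none of its genes was called. The 4 genes Vps26a, Vps26b, Vps29 and Vps35 differed by -0.09 to 0.05 between subsets in het, -0.09 to 0.12 in KO, -0.04 to 0.26 between genotypes in eTregs and 0.00 to 0.19 in cTregs, and the lowest adjusted P was 0.732. The 95% interval of Vps29 between genotypes in eTregs was -0.08 to 0.61, so that a difference of over 0.5 was not excluded by these arrays. Among the 9 HOPS, CORVET and related genes, which tether endosomes to each other and to lysosomes, none was called. Vps16 and Vps33a, whose promoters hold TCACGTGA, differed between genotypes in eTregs by 0.11 ± 0.13 and 0.11 ± 0.11 (SE), and in cTregs by -0.07 ± 0.13 and -0.03 ± 0.11. All 4 of their 95% intervals lay within -0.35 to 0.39.

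Vps33b, a fusion factor that works apart from the core tethers, was the only gene of the tethering group with an unadjusted P below 0.05 between genotypes. Its values were 10.89, 10.71, 10.71 and 10.60 in het cTregs, 10.19, 10.08 and 10.57 in KO cTregs, 9.83, 10.83, 10.13 and 10.51 in het eTregs and 10.19, 10.52 and 10.26 in KO eTregs. KO cTregs lay below het cTregs with no overlap, by a narrow margin, and het eTregs spread over 1 unit. The KO minus het difference was -0.45 ± 0.19 in cTregs (unadjusted P = 0.0335, adjusted P = 1.00, limma) and 0.00 ± 0.19 in eTregs. Vps45, which serves fusion at early endosomes, varied from 8.91 to 9.81 over het eTregs and reached 10.43 on KO eTreg 1, so that its KO minus het difference in eTregs of 0.42 had a 95% interval of -0.15 to 0.98. Without both macrophage-high arrays, which leaves KO eTreg 1, that difference was 0.97. Of the 4 Vps13 genes, whose products carry lipids between membranes, Vps13d alone had an unadjusted P below 0.05, with -0.41 ± 0.18 between genotypes in cTregs.

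Sorting nexins with a BAR domain bend membrane into tubules, and 1 of the 12 was called. Snx9, which links clathrin coats to dynamin and actin, read 8.89, 9.40, 9.15 and 9.10 in het cTregs, 9.14, 9.16 and 9.14 in KO cTregs, 9.88, 10.20, 9.53 and 9.82 in het eTregs and 9.18, 9.91 and 10.19 in KO eTregs. The eTregs were above the cTregs of their genotype, with KO eTreg 1 only just above the highest KO cTreg. The rise was 0.72 ± 0.19 (SE) in het (1.64-fold, adjusted P = 0.0422, limma), and in KO the difference was 0.61 ± 0.21 (adjusted P = 0.181). Without KO eTreg 1 the KO difference was 0.90 and passed (adjusted P = 0.00456), and without KO eTreg 3 it was 0.40. The het call was lost without any of 9 arrays, the 3 KO cTregs (adjusted P of 0.0534, 0.0581 and 0.0579), het cTreg 1 (0.137), het cTreg 3 (0.0935), het cTreg 4 (0.105), het eTreg 1 (0.0905), het eTreg 2 (0.143) or het eTreg 4 (0.0942). Among the KO eTregs, Snx9 was high on both macrophage-high arrays, which also exceeded KO eTreg 1 in effector Treg markers (10.75 and 10.82 against 9.81). Without them its KO difference was 0.03, while the het change, which does not use them, was 0.72 as before.

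Snx33, a close relative of Snx9, differed between subsets by 0.31 ± 0.13 in het and 0.36 ± 0.15 in KO, with adjusted P values of 0.272 and 0.265. Snx18, another close relative, differed the other way, by -0.20 ± 0.10 in het (adjusted P = 0.468) and -0.28 ± 0.12 in KO (adjusted P = 0.306). Of the retromer-linked and recycling members of this group, Snx4 was lower in het eTregs than in het cTregs at an unadjusted P below 0.05, by -0.40. Snx2 and Snx8 were higher in KO eTregs than in KO cTregs at that threshold, by 0.31 and 0.36. Without both macrophage-high arrays these 2 differences were 0.08 and 0.17. No BAR domain gene had an unadjusted P below 0.05 between genotypes, where the 12 differences ran from -0.10 to 0.25 in eTregs and from -0.17 to 0.19 in cTregs.

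Of the 4 sorting nexins with PXA and PXC domains, large proteins that sit where endosomes or lipid droplets touch the endoplasmic reticulum, Snx13 rose. It also carries a domain that acts on G proteins. Snx13 read 9.04, 8.97, 9.11 and 8.31 in het cTregs, 9.07, 8.76 and 9.22 in KO cTregs, 9.53, 9.58, 9.78 and 9.72 in het eTregs and 9.54, 9.04 and 9.53 in KO eTregs. The het subsets did not overlap, het cTreg 4 was the lowest of all arrays, and in KO the array KO eTreg 2 lay within the cTreg range. The rise in het was 0.80 ± 0.17 (SE, 1.74-fold, adjusted P = 0.0120, limma). It was called without each array in turn, with 0.62 without het cTreg 4. In KO the difference was 0.36 ± 0.20 (adjusted P = 0.457), and the difference between both was -0.44 ± 0.26 (adjusted P = 0.847), so that a smaller change in KO was not shown. Without both macrophage-high arrays these values were 0.53 and -0.27.

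Snx25, of the same group, was lower in KO by -0.50 ± 0.22 in cTregs (unadjusted P = 0.0386) and -0.46 ± 0.22 in eTregs (unadjusted P = 0.0549), with adjusted P values of 1.00 and 0.638 by limma. Its arrays were 9.84, 9.53, 8.94 and 9.30 in het cTregs, 8.51, 8.98 and 9.23 in KO cTregs, 9.21, 9.04, 9.73 and 9.69 in het eTregs and 8.76, 9.05 and 9.08 in KO eTregs. The genotypes overlapped in both subsets, in eTregs by KO eTreg 2 and 3 against het eTreg 2. Without both macrophage-high arrays the KO minus het difference in eTregs was -0.66.

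Among the 3 FERM-like sorting nexins, which select receptors for return to the surface, Snx17, an adaptor for integrins, was 10.86, 10.88, 10.76 and 10.84 in het cTregs, 10.27, 10.75 and 10.63 in KO cTregs, 10.26, 10.39, 10.63 and 10.49 in het eTregs and 10.48, 10.59 and 10.57 in KO eTregs. The het cTregs were above every other array. Snx17 differed by -0.39 ± 0.11 between subsets in het (adjusted P = 0.0702) and by -0.28 ± 0.12 between genotypes in cTregs (unadjusted P = 0.0319, adjusted P = 1.00, limma), and by 0.00 between subsets in KO. Without KO cTreg 1 the cTreg genotype difference was -0.14 and the difference between genotype effects was 0.25, against 0.39 with it. Snx27 and Snx31 passed no threshold.

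Of the remaining 11 sorting nexins, Snx15, which joins a PX domain to a MIT domain, had the smallest spread between arrays among the genes given in full. It read 10.99, 11.16, 11.04 and 11.11 in het cTregs, 11.35, 11.42 and 11.23 in KO cTregs, 11.07, 11.10, 11.01 and 11.06 in het eTregs and 10.94, 10.98 and 10.87 in KO eTregs. KO cTregs were above and KO eTregs below all het arrays of both subsets. The eTreg minus cTreg difference was -0.41 ± 0.10 (SE) in KO (1.33-fold, adjusted P = 0.0356, limma) and -0.02 ± 0.08 in het. KO minus het was 0.26 ± 0.09 in cTregs (unadjusted P = 0.0112, adjusted P = 1.00) and -0.13 ± 0.09 in eTregs (unadjusted P = 0.164), and the difference between them was -0.39 ± 0.13 (unadjusted P = 0.00757, adjusted P = 0.736). The adjusted P in KO was above 0.05 without KO cTreg 1 (0.0845), KO cTreg 2 (0.116), KO eTreg 2 (0.0868), KO eTreg 3 (0.165), het cTreg 3 (0.0567), het eTreg 3 (0.0527) or het eTreg 4 (0.0563). Without both macrophage-high arrays the KO difference was -0.40, with an adjusted P of 0.440.

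Snx21, whose product carries a PX domain and a protein interaction domain, read 7.77, 8.24, 7.86 and 8.03 in het cTregs, 7.75, 7.97 and 7.88 in KO cTregs, 8.32, 7.78, 7.85 and 7.61 in het eTregs and 8.72, 8.25 and 7.91 in KO eTregs. The eTreg groups overlapped, and KO eTreg 1 stood above the rest. The KO minus het difference in eTregs was 0.40 ± 0.19 (unadjusted P = 0.0470, adjusted P = 0.606, limma). It was 0.19 without KO eTreg 1 and 0.83 without both macrophage-high arrays. Snx10, which is needed by osteoclasts and acts on late endosomes, had an eTreg minus cTreg difference of 0.62 ± 0.28 in KO (adjusted P = 0.326), where its eTreg values were 8.20, 9.02 and 8.84 with the 2 macrophage-high arrays above KO eTreg 1. Without these arrays the difference was 0.13.

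**Figure D3:**
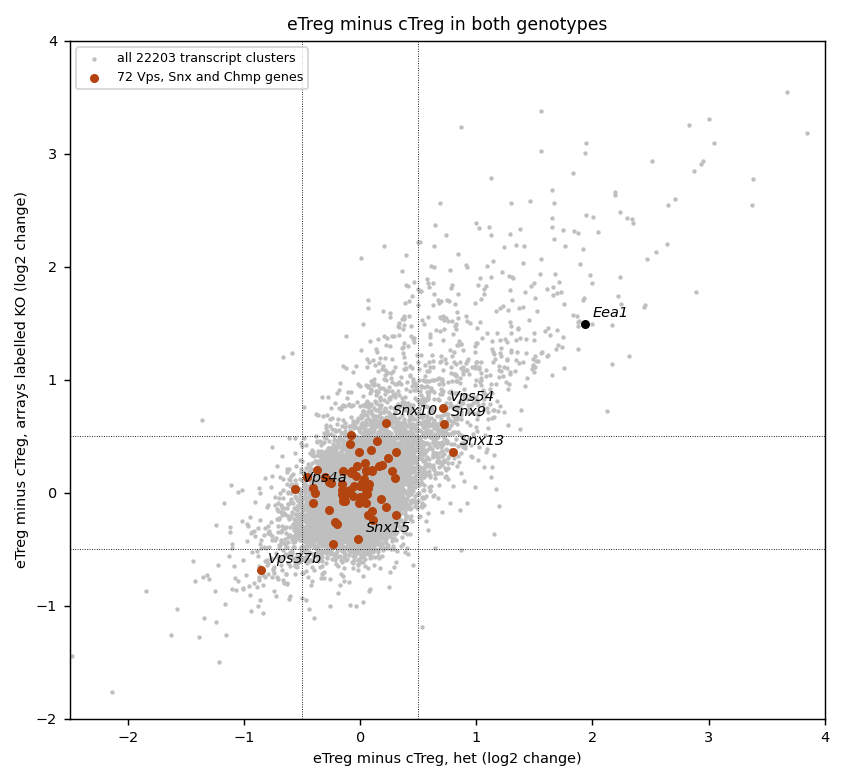
Log2 change from cTreg to eTreg in het (horizontal) and in arrays labelled KO (vertical) for all 22203 transcript clusters (grey) and the 72 genes (orange), with Eea1 in black and dotted lines at the size limit of 0.5. Most of the 72 lie inside the dotted square, and Vps54, Snx9 and Vps37b lie outside it on both axes.

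Most genes of the group showed small differences, and the precision differed between comparisons. The 95% interval lay wholly within 0.5 of 0 for 45 of the 72 genes between subsets in het (62.5%, against 75.1% of all transcript clusters), for 37 in KO (51.4%, against 60.5%), for 42 between genotypes in eTregs (58.3%, against 71.9%) and for 49 in cTregs (68.1%, against 76.1%). For the remaining genes the arrays did not limit the difference to that range. No gene differed by 0.5 or more between genotypes in eTregs, where the extremes were Vps54 at -0.46 and Vps45 at 0.42. In cTregs they were Vps54 at -0.50 and Snx15 at 0.26.

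**Figure D4:**
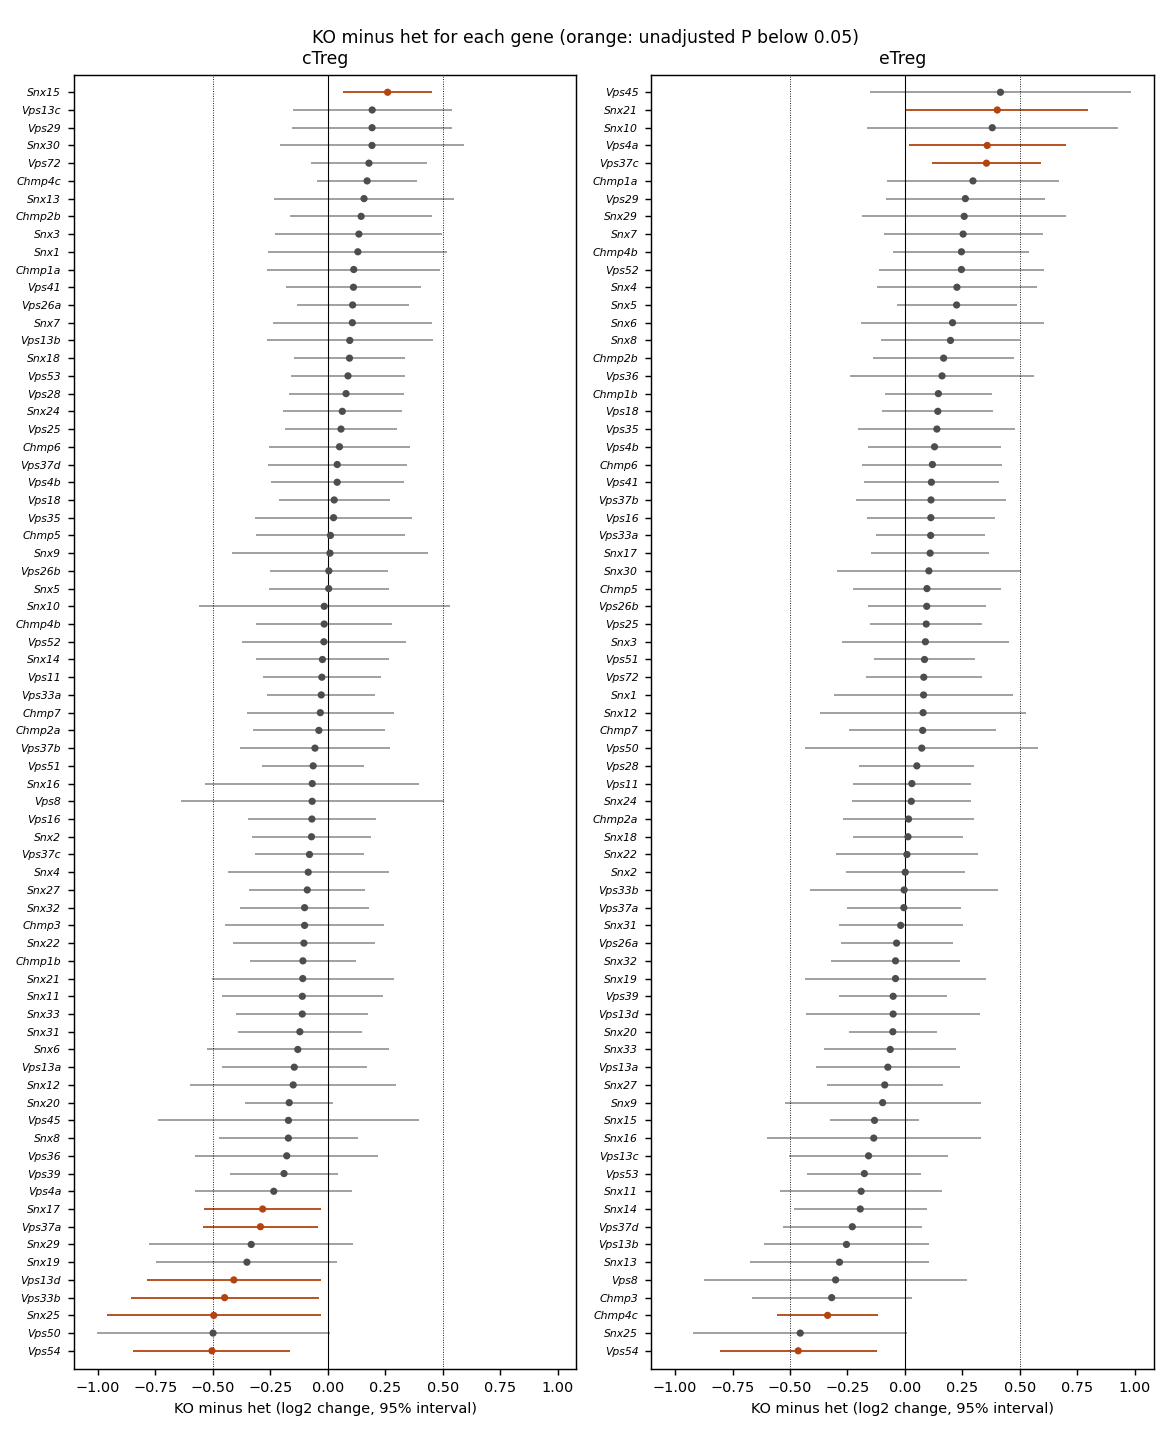
KO minus het difference of each of the 72 genes in cTregs (left) and eTregs (right), sorted by size, with the 95% interval as a line and dotted lines at -0.5 and 0.5. Genes with an unadjusted P below 0.05 are orange, 7 in cTregs and 5 in eTregs, and Vps54 is lowest in both panels.

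The median KO minus het difference in eTregs was 0.08 over the 72 genes and -0.02 over all transcript clusters, and 45 of 72 were higher in KO (62.5%, against 44.2%). In cTregs it was -0.04 and 0.02, with 29 of 72 higher (40.3%, against 54.8%). Single arrays moved both medians. The eTreg median was 0.0004 without KO eTreg 2, 0.0125 without het eTreg 1 and 0.0387 without KO eTreg 3, and in cTregs leaving out KO cTreg 1 gave a median of 0.0328, KO cTreg 2 one of -0.0846, het cTreg 1 one of -0.0601 and het cTreg 2 one of -0.016. On KO eTreg 2 and 3 together the 72 genes had a median of 0.15 above KO eTreg 1, where all transcript clusters had -0.07, and 40 of 72 (55.6%, against 30.5%) were higher on both arrays than on KO eTreg 1. Without these arrays the median KO minus het difference in eTregs was -0.07. That value rests on KO eTreg 1 alone, and in each group the array numbered 1 had the lowest median of the 72 signals. The median of the 72 signals varied between arrays of 1 group with an SD of 0.10. That SD is of single arrays, whereas the differences compare group means, so it is not a test of them.

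Of the 72 genes 11 differed by 0.5 or more between KO eTreg 1 and the mean of KO eTreg 2 and 3 (15.3%, against 12.3% of all), 8 being higher and 3 lower on the latter. Snx9 (by 0.87), Snx12 (0.81), Snx11 (0.76), Snx10 (0.73), Vps36 (0.67), Chmp1a (0.63), Snx16 (0.62) and Vps52 (0.51) were higher. Vps45 (-0.83), Snx29 (-0.66) and Snx21 (-0.64) were lower. These are differences between single arrays with no test, and the part of the macrophage markers in them was not tested.

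**Figure D5:**
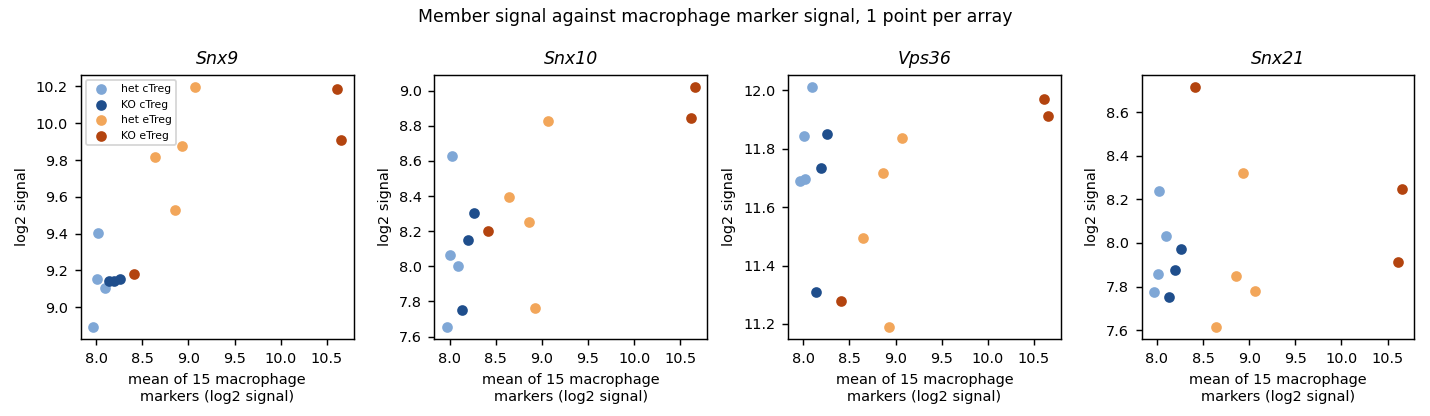
Log2 signal of Snx9, Snx10, Vps36 and Snx21 (vertical) against the mean log2 signal of 15 macrophage markers (horizontal), 1 point per array coloured by group. KO eTreg 2 and 3 lie far to the right at 10.66 and 10.61, and KO eTreg 1 lies at 8.41 near the cTregs. Snx9 and Snx10 are higher on KO eTreg 2 and 3 than on KO eTreg 1. In het eTregs, at marker means of 8.64 to 9.07, Snx9 is 9.53 to 10.20 and Snx10 7.76 to 8.83.

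Partner genes outside the name rule were examined in the same comparisons. Of 14 ESCRT partners (all measured), 19 measured partners of retromer, WASH and CCC complexes out of 20, 12 early endosome and tethering partners and 5 subunits of the Vps34 complex, Eea1 was called between subsets in both genotypes and Stambp in KO. Over all transcript clusters 3.06% were called between subsets in het and 2.35% in KO. Between genotypes 0 partners were called by limma, against 0.117% of all in eTregs and 0.045% in cTregs. An unadjusted P below 0.05 was found in eTregs for 1 ESCRT partner, 3 of the retromer, WASH and CCC partners, 2 early endosome partners and 1 Vps34 complex gene, and in cTregs for 1 early endosome partner. That is 7 of the 50 measured partners in eTregs (14%, against 8.03% of all) and 1 in cTregs (2%, against 4.01%), beside 7 between subsets in het (14%, against 12.8%) and 9 in KO (18%, against 13.8%). Eea1, an early endosome tether that binds phosphatidylinositol 3-phosphate, rose from a mean of 9.67 in het cTregs to 11.61 in het eTregs, by 1.94 ± 0.16 (SE, adjusted P = 3.95e-06), and from 9.52 to 11.01 in KO, by 1.49 ± 0.18 (adjusted P = 0.00036). Its change was larger than that of any of the 72 genes, whose changes ran from -0.85 to 0.80 in het. Eea1 differed between genotypes by -0.60 ± 0.17 in eTregs (unadjusted P = 0.00307, adjusted P = 0.264). Without both macrophage-high arrays the KO rise of Eea1 was 1.04 and its genotype difference in eTregs was -1.05. Both values rest on KO eTreg 1 alone, the eTreg array lowest in effector Treg markers, and the part of this was not tested. Ccdc22, a CCC complex subunit named after its values were seen, differed between genotypes in eTregs by 0.62 ± 0.14 (unadjusted P = 0.000499, adjusted P = 0.142), or 0.38 without both arrays. Stambp, an enzyme that removes ubiquitin from endosomal cargo, rose by 0.72 ± 0.14 in eTregs labelled KO (adjusted P = 0.0108), and its het difference was 0.41 ± 0.12 (adjusted P = 0.0888). The KO difference without both macrophage-high arrays was 0.62 (adjusted P = 0.352). The Vps34 complex genes Pik3c3, Pik3r4, Becn1 and Uvrag differed between genotypes in eTregs by -0.08, 0.39, -0.07 and 0.12, with adjusted P values of 0.584 or more. The Pik3r4 difference was -0.05 without both macrophage-high arrays.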

How the data were processed

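Total RNA of sorted Tregs was measured on 14 Clariom S mouse arrays. The authors processed the scans by robust multi-array average (RMA), for which the submitters' processing notes name Affymetrix Expression Console 1.1, and deposited log2 signals, 1 per transcript cluster and array, quantile normalised over all arrays, which hides any shift shared by most genes. Scans were not used here. Of 28846 entries, 6640 control probe sets and 3 with a blank symbol were left out, and the other 22203 were tested with no filter on signal. A linear model with 4 group means was fitted with limma 3.58.1 (lmFit and eBayes, with 10 residual and 5.65 prior degrees of freedom) in R 4.3.3 with the package data.table (version 1.17.8). Contrasts were eTreg minus cTreg in each genotype, KO minus het in each subset, and the difference between the genotype effects (KO minus het in eTregs minus that in cTregs). P values are two-sided, adjusted by Benjamini-Hochberg over all 22203, and intervals are 95% intervals from the same fit. In data simulated on the het subset comparison with 22203 genes, 28 of 100 changes of size 0.5 and 98 of 100 of size 1 were called, with 2 false calls. The simulated noise was normal and independent between arrays, and a true change of 0.5 sits at the size limit. These rates therefore need not hold for the measured arrays. How precise any value can be is limited by the few arrays per group. No 2 arrays held identical values.

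The genes, roles, partner lists and markers were chosen with earlier results of these data known. Every gene of the group could be named. Values on each array were given for genes called in a comparison and, where a comparison had fewer than 5 such genes, for the 5 of lowest P, and partner genes were named where called. Snx10, Snx25 and other genes shown with array values beyond these were chosen after their values were seen. Alternatives were subtraction of array medians or 75th percentiles, array weights, a trended robust prior, a filter at the median signal, all rows of each symbol, a fit of the groups compared alone, a replicate block, and each array left out. Leaving out KO eTreg 2 and 3 together and the average over both subsets were added after the data were seen. Promoter windows came from RefSeq (GRCm38.p6).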

Additional observations from a re-analysis of the deposited data

How the results depend on the processing

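The het subset comparison kept 3 to 5 called genes over all alternatives, and called genes between genotypes and for the difference of genotype effects stayed at 0. For the 5 genes of lowest P in each comparison, no difference changed sign under any alternative run. The KO subset comparison, with 2 called genes, had 0 with array medians subtracted, 0 in the fit of the 2 groups compared alone and 0 without both macrophage-high arrays (added after seeing the data), and between 0 and 3 over the fits that left out 1 array (0 without KO cTreg 2, KO eTreg 2 or KO eTreg 3, and 1 without KO cTreg 1, KO cTreg 3, het cTreg 3 or het eTreg 3). With array medians subtracted, the adjusted P was 0.0542 for Vps54 and 0.0588 for Vps37b in KO, and 0.0756 for Snx9 in het. In the fit of the 2 KO groups, whose fewer arrays leave fewer degrees of freedom, it was 0.215 and 0.164 for Vps54 and Vps37b. Vps4a in het passed the adjusted threshold with array weights (0.00381), 75th percentiles subtracted (0.0245), the filter on signal (0.0318), the robust prior (0.0356), the fit of 2 groups (0.00982) and without both macrophage-high arrays (0.0161). Snx9 in KO passed with array weights (0.0363). The filter on signal left 62 of the 72 genes and gave no value for Chmp4c and Snx21, and the difference of genotype effects has no fit of 2 groups. Without both macrophage-high arrays the median change of the 72 genes was -0.0649 in the KO subset comparison, -0.070 between genotypes in eTregs and -0.0554 for the difference of genotype effects, against 0.0596, 0.0780 and 0.0858 with them, a change of sign in each. In these fits KO eTreg 1 alone stands for its group. The arrays numbered 1 had the lowest median signal of the 72 genes in every group, and the part of this was not tested. The median also changed sign on leaving out 1 array, running from -0.0846 to 0.0328 between genotypes in cTregs, -0.019 to 0.134 in the KO subset comparison and -0.0707 to 0.0225 in het.

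Samples with the same number shared a deviation only in part (correlations of 0.07 to 0.22 between het subsets, 0.04 to 0.30 between KO subsets, 0.08 to 0.26 between genotypes in cTregs and 0.01 to 0.29 in eTregs), and 3 of 4 het cTregs and 3 of 3 KO cTregs correlated best with the eTreg of their number, as a hint from the data and not from the design. With the replicate block (genotype and number), 5 genes were called in het, Vps4a being added (adjusted P = 0.0120), and 3 in KO, Snx10 being added, and 0 for the difference. With the replicate block by number, 0 were called between genotypes in either subset, where Vps54 had an adjusted P of 0.175 in eTregs and 0.501 in cTregs.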

Other observations

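In each of the 4 groups the array numbered 1 had the lowest median signal over the 72 Vps, Snx and Chmp genes. The medians were 10.25 on het cTreg 1 against 10.27 to 10.37 on the other het cTregs, 10.09 on KO cTreg 1 against 10.19 and 10.36, 10.11 on het eTreg 1 against 10.28 to 10.40, and 10.21 on KO eTreg 1 against 10.34 and 10.32. The median over all transcript clusters did not follow this order, being the highest of the group on these 4 arrays and reaching 8.90 on het eTreg 1. The labels do not say what the numbers stand for.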
